A study of Mus musculus with 5 samples.

Results

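Genes of bone marrow-derived macrophages were compared between 7 h of lipopolysaccharide (LPS) and no stimulation. The cells were grown from the marrow of C3H/ARC mice by in vitro differentiation with human CSF-1. They were untreated (0 h) or had received LPS of Salmonella minnesota at 10 µg/ml for 7 h. Each condition was measured on 1 array, which belongs to a series of 5 arrays that also holds 0.5, 2 and 21 h of LPS. On every array the cell RNA was set against whole C57BL6/J embryo RNA of day 17.5 on spotted probes. The labels give neither the number of mice behind an array nor any replicate, so no test was possible, no p-value is given, and higher and lower below describe these 2 arrays. In bulk RNA of this kind, fewer cells of a type and less RNA per cell cannot be told apart.

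The members are the 8637 genes, of 8637 in the whole series, that had a probe with exactly 1 gene symbol and a value on all 5 arrays. Each array was centred on its median, and the log2 change is the centred value at 7 h minus that at 0 h, averaged over the probes of a gene. A level below is a centred log2 ratio of macrophage to embryo RNA, so 0 is the array median. The deposited values were read as log10 ratios of macrophage over embryo. Base and direction were inferred from the values and not stated by the labels. If the base was 2, all changes below would be 3.32 times too large, and if the direction was the opposite, higher and lower would exchange. The array medians differed by -0.22 between 7 h and 0 h, and without centring every change would be lower by that amount.

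LPS is recognised by Toll-like receptor 4 with its partners CD14 and MD-2, which signal through the adaptors MyD88 and TRIF. The signal frees NF-kappaB from its inhibitors, activates MAP kinases, and through interferon regulatory factors and secreted type I interferon switches on a further layer of genes. Macrophages then also rebuild their secretory, antigen-processing, adhesion and metabolic machinery. The account below is concerned mainly with genes outside the cytokine, interferon and cell cycle lists.

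Of the 8637 genes, 352 (4.08%) stood higher at 7 h by 2-fold or more and 273 (3.16%) lower by as much. The split depended on the scaling, with 220 higher and 510 lower without centring and 417 and 516 under quantile normalization. With the 0.5 h array in place of the 0 h array it was 235 and 709. The median change over all genes was -0.000287, and 77.7% of genes lay within 1.5-fold of 0 h. Genes resting on 1 probe made up 5622 of the total, and 4.93% of them stood higher by 2-fold or more and 4.09% lower. Among the 1152 genes with 3 or more probes these shares were 1.48% and 0.434%.

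Agreement between probes was therefore used to select genes. The SD of the change over probes of 1 gene, pooled over the 3015 genes with 2 or more probes, was 0.51 on the log2 scale, or 1.43-fold. It measures spots and clones and not cultures. In 84 of the 3015 genes (2.79%) every probe was at least 1.5-fold higher at 7 h, and in 58 (1.92%) every probe was at least 1.5-fold lower. Without centring these numbers were 38 and 141, and under quantile normalization 83 and 107. The annotation gave different sequence accessions to the probes of 19 of the 84 genes and 8 of the 58. For the others it does not show whether the probes are copies of the same sequence. Because the same values chose these genes, their changes are given as a description.

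**Figure D1:**
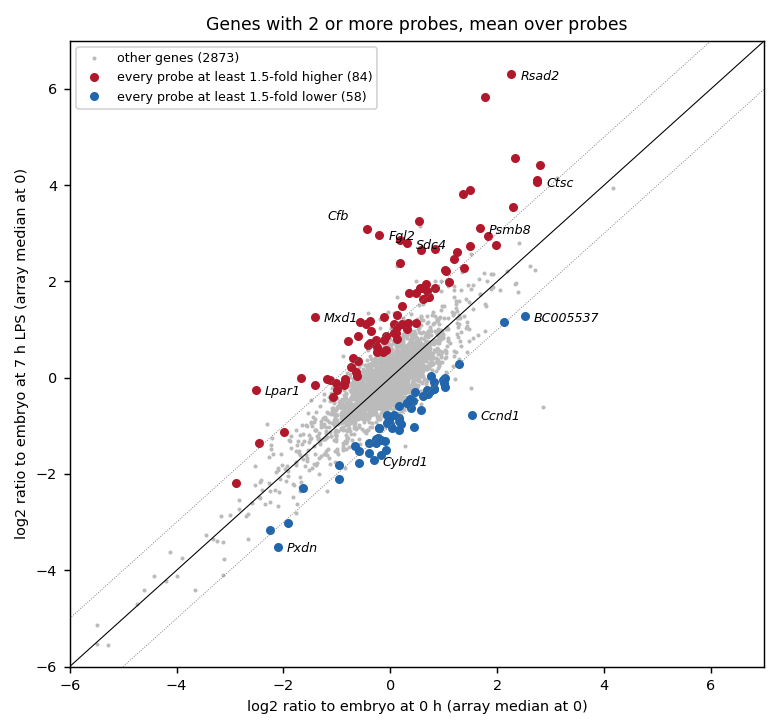
Centred log2 ratio to embryo RNA at 0 h (x axis) and at 7 h of LPS (y axis) for the 3015 genes with 2 or more probes, each point the mean over probes. The solid line marks equal levels and the dotted lines a 2-fold difference; the 84 genes with every probe at least 1.5-fold higher are red, the 58 with every probe at least 1.5-fold lower blue, and most genes lie along the line.

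Of the 84 higher genes, 8 belong to the interferon or cell cycle lists (among them Rsad2, Ifit1, Irf7 and Ccnd2). Another 27 belong to other functional or marker lists and 49 to none. The 8 were all 7 interferon list genes with 2 or more probes and 1 of 22 in the cell cycle list, against 2.79% of the 3015 genes. The 84 genes had a median change of 1.14. Of the 58 lower genes, 3 belong to the cell cycle list (Ccnd1, Mcm4 and Cdc6), 6 to another list and 49 to none. The 3 were of the same 22 cell cycle genes, against 1.92% of the 3015 genes. The median change of the 58 was -1.02. How many of the 3015 genes belong to other lists or to none was not counted, so those numbers only describe these genes. The 20 highest and 20 lowest outside the cytokine, interferon and cell cycle lists, ranked by the probe with the smallest change, are described next.

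Windows upstream of 4 of the higher genes are printed because they carry short elements bound by factors of the LPS response. Each window is the 250 bases before an annotated start in RefSeq's GRCm38.p6 table, written 5′ to 3′ on the gene's strand, with matches in capitals. Fgl2 (chr5:21372423-21372672, plus strand) holds an AP-1 element TGANTCA. Ifit1bl2 (chr19:34640744-34640993, minus strand, the first of 2 starts) holds 3 matches to an interferon-type element GAAANNGAA, of which the last 2 overlap. Serp1 (chr3:58525885-58526134, minus strand) holds 1 such match. Nfkbia (chr12:55492648-55492897, minus strand), named after its values were seen, holds 2 matches to the kappaB element GGGNNTTTC and 1 to the interferon-type element.
Fgl2: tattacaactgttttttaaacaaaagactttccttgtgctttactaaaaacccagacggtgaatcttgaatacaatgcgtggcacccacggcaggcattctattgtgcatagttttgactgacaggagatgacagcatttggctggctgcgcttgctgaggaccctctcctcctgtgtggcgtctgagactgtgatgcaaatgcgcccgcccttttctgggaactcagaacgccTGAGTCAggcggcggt
Ifit1bl2: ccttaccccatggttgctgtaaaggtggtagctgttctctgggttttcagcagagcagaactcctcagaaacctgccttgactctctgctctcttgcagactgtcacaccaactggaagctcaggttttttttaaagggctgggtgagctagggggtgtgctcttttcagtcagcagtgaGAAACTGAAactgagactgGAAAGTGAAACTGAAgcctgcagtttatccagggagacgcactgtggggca
Serp1: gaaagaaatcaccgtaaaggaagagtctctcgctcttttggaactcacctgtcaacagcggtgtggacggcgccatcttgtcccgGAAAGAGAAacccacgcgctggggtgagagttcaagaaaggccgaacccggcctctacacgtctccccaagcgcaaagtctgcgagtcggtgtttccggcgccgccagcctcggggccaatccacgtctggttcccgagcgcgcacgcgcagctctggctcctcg
Nfkbia: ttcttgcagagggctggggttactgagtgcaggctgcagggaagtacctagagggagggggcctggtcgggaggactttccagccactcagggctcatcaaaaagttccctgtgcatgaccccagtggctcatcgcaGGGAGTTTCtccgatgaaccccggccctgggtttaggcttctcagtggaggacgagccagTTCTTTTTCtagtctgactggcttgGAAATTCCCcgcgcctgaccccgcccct

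These motifs were counted on both strands in the upstream windows of all genes, and a gene counted if any of its windows matched. Windows per gene averaged 1.22 over all genes, 1.28 over array genes, 1.32 over agreeing higher and 1.43 over agreeing lower genes. More sequence was therefore searched per agreeing gene, and the shares below are not adjusted for it. The interferon-type element was found in 8.18% of 27025 genes in the table, in 7.53% of the 6963 array genes with a window, and in 10 of the 75 agreeing higher genes with a window (13.3%). Without the cytokine, interferon and cell cycle lists it was found in 7 of 68 agreeing higher genes (10.3%), and in 4 of 47 agreeing lower genes (8.51%). The kappaB element was found in 4.35% of all genes, 5.33% of the agreeing higher and 6.38% of the agreeing lower genes. The AP-1 element was found in 7.82%, 9.33% and 10.6% in the same order, and the cyclic AMP element TGACGTCA in 1.77%, 2.67% and 2.13%. Among the array genes with a window the shares were 4.37% for kappaB, 6.33% for AP-1 and 2.90% for the cyclic AMP element, the last above both agreeing sets. A match describes letters in a window and not a bound site.

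The genes are taken by what their proteins do, a grouping made after their values were seen. Cfb, complement factor B, which forms the convertase of the alternative complement pathway, had levels of -0.52 and -0.35 at 0 h and 2.42 and 3.78 at 7 h on its 2 probes. Both probes stood near the array median before stimulation and far above it afterwards, a change of 3.54 (SD over probes 0.84) or 11.6-fold. The levels of Fgl2, a prothrombinase of activated macrophages and one of the genes whose upstream window is shown, were 0.04 and -0.45 at 0 h and 3.56 and 2.37 at 7 h. Its change was 3.17 (SD over probes 0.50), and both Fgl2 probes stood below 1 on the 0.5 h and 2 h arrays. Sdc4, a heparan sulfate proteoglycan of the cell surface, had levels of 0.34 and 0.29 at 0 h and 2.99 and 2.58 at 7 h. It was 5.55-fold higher, and at 21 h its probes read 0.35 and 1.01. Srgn, the core protein of the proteoglycan of secretory granules, was 4.23-fold higher with its 3 probes between 0.44 and 0.65 at 0 h and between 2.32 and 3.13 at 7 h.

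Lpar1, a receptor for lysophosphatidic acid, had levels of -2.01 and -3.02 at 0 h and -0.35 and -0.15 at 7 h. Its ratio to embryo RNA thus stayed below the array median while its change was 2.27 (SD over probes 0.86). Axl, a receptor tyrosine kinase through which macrophages bind apoptotic cells, had levels of -0.72 and -0.69 at 0 h and 0.46 and 0.38 at 7 h. The 2 Axl probes lay within 0.1 of each other on both arrays and gave a 2.17-fold difference. Prnp, which encodes the cellular prion protein, was 2.59-fold higher on 3 probes and read 1.34, 1.20 and 1.22 at 7 h, against 0.34, -0.33 and -0.36 at 21 h.

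Mxd1, which competes with Myc for its partner Max, had levels of -0.80 and -2.03 at 0 h and 1.95 and 0.59 at 7 h. The probes differed in level but hardly in change, 2.75 and 2.62. Pim1, a survival kinase, had levels of 0.33, 0.35, 0.86 and 0.61 at 0 h and 3.37, 3.25, 3.13 and 3.30 at 7 h on 4 probes. All 4 Pim1 probes stood above 2 already at 0.5 h, so that against the 0.5 h array its change was 0.76 rather than 2.72. All 4 lie in runs of probe numbers with many high readings at 0.5 h and 2 h, as do all probes of 4 of the 20 higher genes (Pim1, Ifit1bl2, Psme2 and Nfkbib) and 3 of the 20 lower genes (Cybrd1, Sptssa and Hils1). Gadd45b, a stress-induced protein that restrains cell death downstream of NF-kappaB, had levels of 0.67 and -0.33 at 0 h and 2.88 and 2.84 at 7 h. Its change was 2.69 (SD over probes 0.68), and its probes read 3.08 and 3.04 at 2 h.

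Serp1 encodes a small protein that stabilises newly made membrane proteins at the endoplasmic reticulum. Its 3 probes had levels of -0.01, 0.31 and 0.26 at 0 h and 1.92, 2.57 and 2.66 at 7 h. They gave a 4.59-fold difference, and stood between 0.36 and 1.25 at 2 h. Hspa5, the main chaperone of the same compartment, was higher on its 3 probes by 1.05, 0.78 and 1.09. Of the 48 measured endoplasmic reticulum chaperone and stress genes, however, 0 differed by 2-fold or more, against 7.24% of all genes. Their median change was 0.05 (-0.17 without centring).

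Ifit1bl2 belongs to the interferon-induced Ifit family but was not in the interferon list. Its probes read 1.23 and 1.48 at 0 h and 3.30 and 4.32 at 7 h, a 5.48-fold difference. At 0.5 h the first probe stood higher still, at 7.07, and the second lower than at 7 h, at 3.43. The mean change against the 0.5 h array was -1.44, and both probes lie in the runs of high early readings. Ifit genes are close copies of each other, and spotted probes may not separate them, so the assignment to Ifit1bl2 is uncertain. Ifrg15, named for its response to interferon, was 3.60-fold higher with 2 probes at 1.82 and 1.88. Il18bp, the secreted inhibitor of interleukin 18, was higher on 3 probes by 1.78, 1.12 and 1.03, and the exonuclease gene Isg20 on 5 probes by 0.72 to 1.11. All 3 Il18bp probes and 4 of the 5 Isg20 probes lie in the runs of high early readings. Against the 0.5 h array the changes were 0.16 for Il18bp and 0.76 for Isg20. Il18bp and Isg20 were chosen after their values were seen. For comparison, 16 of 25 measured genes of the interferon list stood 2-fold or more above 0 h, against 4.08% of all genes.

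The remaining higher genes of the 20 had changes between 1.15 and 1.36. Rnf149, a membrane-bound ubiquitin ligase, was 2.57-fold higher. Esd, a formylglutathione hydrolase, was 2.41-fold higher and stood higher again at 21 h, with a change of 2.07. Arpc5, a subunit of the complex that branches actin filaments, was 2.32-fold higher with probes at 1.14 and 1.28. Poldip2, a partner of DNA polymerase delta that is also found in mitochondria, was 2.23-fold higher and stayed near or below the array median at 7 h. The proteasome genes Psma6 and Psme2 and the NF-kappaB inhibitor gene Nfkbib are given with their families below. The 20th gene had a smallest probe change of 1.06 and the next gene of 1.04, so the border of this set is not a gap.

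**Figure D2:**
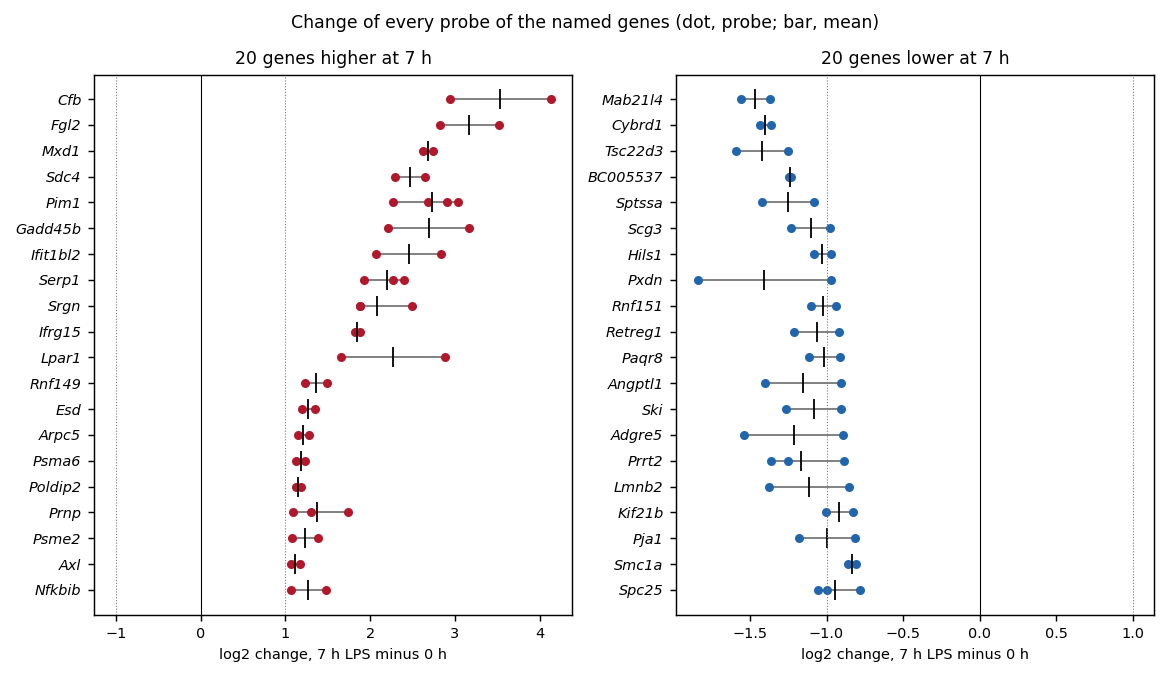
Log2 change from 0 h to 7 h of LPS (x axis) of every probe of the 20 highest (left) and 20 lowest (right) genes with agreeing probes, in order of their smallest probe change. Dots are probes and black bars means over probes; the dotted lines mark 2-fold. The probes of Mxd1, Ifrg15 and BC005537 nearly coincide, while those of Cfb and Lpar1 are more than 1 log2 unit apart.

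The changes of the 20 lower genes were close together. They lay between -0.83 and -1.46, and 16 of them were at least 2-fold lower on the mean. Tsc22d3, the glucocorticoid-induced leucine zipper that restrains inflammatory gene expression, had levels of -0.03 and -0.33 at 0 h and -1.28 and -1.92 at 7 h. It was 2.68-fold lower, and its probes read 0.20 and 0.19 at 21 h, above both 0 h values. Cybrd1, a ferric reductase of the plasma membrane, had levels of 0.01 and -0.63 at 0 h and -1.43 and -1.995 at 7 h. It was 2.64-fold lower, and at 21 h its probes still read -1.17 and -1.14. Sptssa, a small subunit of the enzyme that starts sphingolipid synthesis, had levels of 0.53 and 0.62 at 0 h and -0.55 and -0.79 at 7 h. It stood 2.38-fold lower on 2 probes that gave -1.08 and -1.42.

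BC005537, a gene known by its cDNA number, had the closest agreement, with levels of 2.58 and 2.44 at 0 h and 1.35 and 1.20 at 7 h. It remained above the array median while 2.36-fold lower. Retreg1, a receptor for autophagy of the endoplasmic reticulum, had levels of 0.31 and 0.01 at 0 h and -0.61 and -1.21 at 7 h. Ski, a repressor of TGF-beta signalling, had levels of -0.22 and 0.29 at 0 h and -1.12 and -0.98 at 7 h. Adgre5, the adhesion receptor CD97 of leukocytes, was 2.32-fold lower, but its 2 probes differed in level by more than 2 log2 units on each array. Pja1, a ubiquitin ligase, was 1.998-fold lower, and Paqr8, a membrane progesterone receptor, 2.02-fold.

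Smc1a, a subunit of cohesin, which holds sister chromatids together, had levels of 0.20 and 0.41 at 0 h and -0.65 and -0.40 at 7 h. Spc25, of the kinetochore complex that grips microtubules, stood lower on 3 probes, which gave -0.996, -1.05 and -0.78. Lmnb2, a lamin of the nuclear envelope, gave -1.37 and -0.85. Smc2, a condensin subunit, gave -0.64, -0.71 and -0.82, and Hmgb1, a chromatin protein that acts as an alarm signal outside cells, -1.01, -1.07, -0.87 and -0.61. Smc2 and Hmgb1 were chosen after their values were seen. In the cell cycle list itself, 10 of 60 measured genes stood 2-fold or more below 0 h and 1 above, against 3.16% and 4.08% of all genes. The median of that list was -0.36 (-0.58 without centring).

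Several lower genes have their known roles outside macrophages. They include Scg3, a secretory granule protein of neuroendocrine cells, Hils1 and Rnf151 of developing sperm, Prrt2 and Kif21b of neurons, Pxdn of basement membranes, and the secreted angiopoietin-like gene Angptl1. Their changes lay between -0.92 and -1.41. Pxdn had levels below -1.5 on both probes at 0 h, so its signals were far below those of the embryo. Kif21b had 1 probe at -4.81, but its other probe read 0.32 at 0 h and lies in the runs of high early readings. Against the 0.5 h array Scg3 (0.10) and Pxdn (0.34) changed sign. One probe each of Mab21l4 and Hils1 read above 4 at 0.5 h and 2 h, in runs of probe numbers with many high readings on those arrays, and their 2 probes at 7 h gave changes of -1.56 and -1.37, and -0.97 and -1.08. The part of these readings in the changes at 7 h was not tested.

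**Figure D3:**
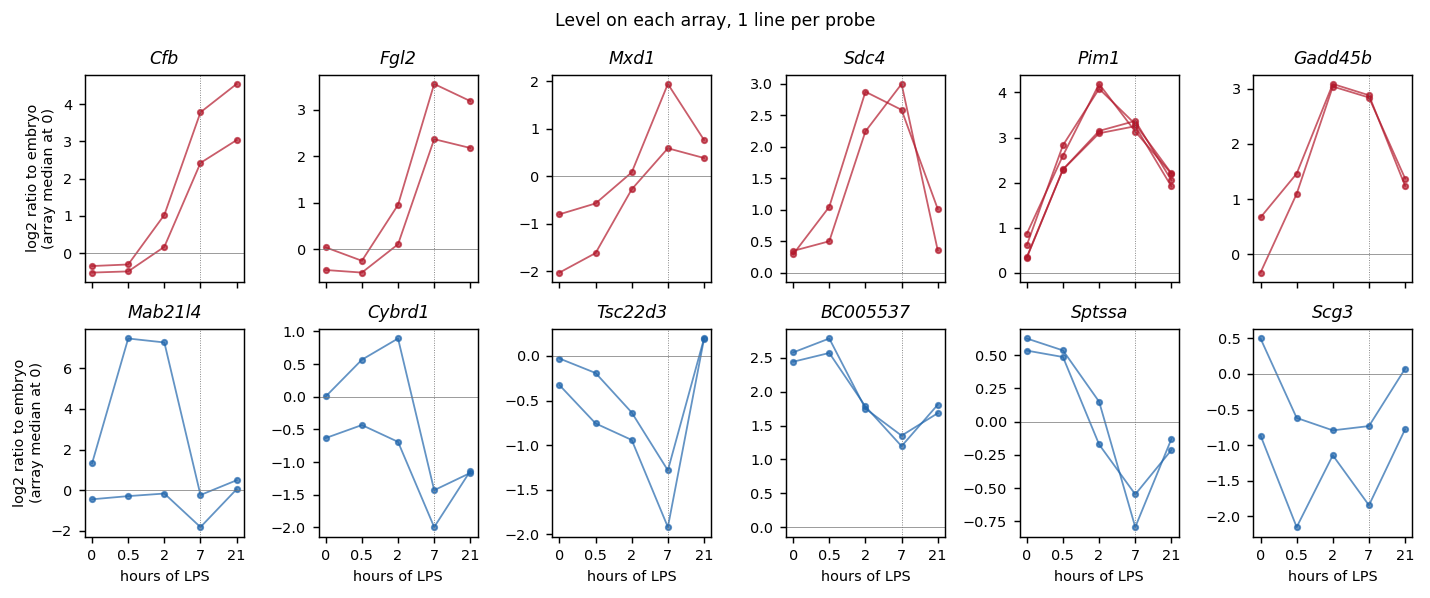
Centred log2 ratio to embryo RNA (y axis, scaled per gene) on the 5 arrays in order of hours of LPS (x axis, not to scale) for the 6 leading higher genes (top, red) and 6 leading lower genes (bottom, blue), 1 line per probe. The dotted line marks 7 h. Cfb stands higher at 21 h than at 7 h, Sdc4 stands lower at 21 h than at 7 h, and 1 probe of Mab21l4 stands above 7 at 0.5 h and 2 h.

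Beside the other arrays, which share the 0 h values, the 7 h levels belonged to different courses. Of the 20 higher genes, 7 had a level at 21 h nearer to 0 h than to 7 h, among them Sdc4 and Prnp. Of the 20 lower genes this held for 10, among them Tsc22d3 and Ski. With the 0.5 h array as baseline, 19 of the 20 higher and 18 of the 20 lower genes kept their sign. The 7 h values that chose these genes enter both differences, so this is no separate check, and the share over all genes was not counted. Against 0.5 h, 36 of the 84 higher and 32 of the 58 lower genes again had every probe at least 1.5-fold from the baseline.

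The 36 functional lists put single genes in context. The list of NF-kappaB subunits, inhibitors and survival targets had the highest median, with 9 of 11 measured genes 2-fold or more above 0 h (4.08% of all genes), 0 below (3.16%), and a median change of 1.41 (1.19 without centring, 0.44 against 0.5 h). Birc3, whose protein restrains caspases, read 0.03 at 0 h and 2.76 at 7 h on 1 probe. Nfkbib, an inhibitor that holds NF-kappaB in the cytoplasm, was 2.41-fold higher with probes at 1.06 and 1.48. Nfkbia, the sister inhibitor whose upstream window is shown, was 3.31-fold higher. Cflar, which blocks caspase 8, had a mean of 1.41, but its probes gave 2.45 and 0.37. The 2 measured members that were not 2-fold higher were the subunit gene Rela, with a change of 0.15 (-0.07 without centring), and the adaptor gene Bcl10, with -0.48.

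Upstream of NF-kappaB, 14 genes of endotoxin and Toll-like receptor signalling were measured, each 2-fold call resting on 1 probe. Of these, 4 stood 2-fold or more above 0 h and 0 below, against 4.08% and 3.16% of all genes. The median was 0.60 (0.38 without centring, 0.17 against 0.5 h). Ly86, the partner of the LPS-binding receptor homologue CD180, read -0.64 at 0 h and 1.41 at 7 h, a 4.12-fold difference. Tank and Tab2, adaptors that link receptors to kinases, were 2.61-fold and 2.44-fold higher, and Aoah, the enzyme that removes acyl chains from LPS, 2.52-fold. The kinase genes Ripk3 (-0.60, 2 probes) and Irak1 (-0.47, 2 probes) stood lower by less than 2-fold.

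**Figure D4:**
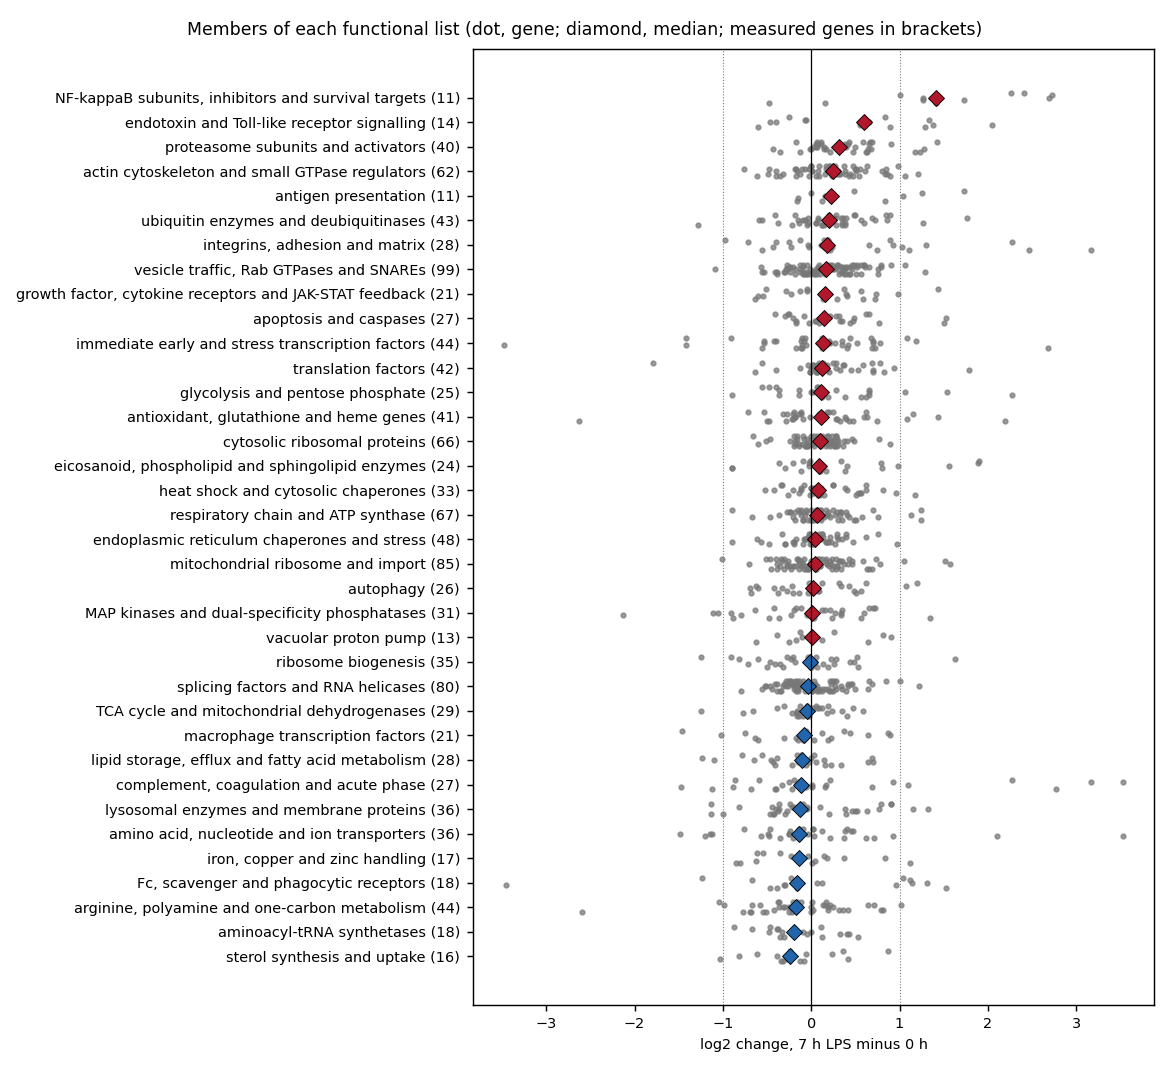
Log2 change from 0 h to 7 h of LPS (x axis) of the measured genes of 36 functional lists (y axis, number of measured genes in brackets), ordered by median. Grey dots are genes and diamonds list medians, red above 0 and blue below; the dotted lines mark 2-fold. The NF-kappaB list stands apart at 1.41, and most other medians lie within 0.25 of 0, so that the shift of -0.22 without centring turns most of the red ones negative.

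Proteasome genes stood mostly higher. The proteasome is a barrel of alpha and beta rings that degrades ubiquitin-tagged proteins, with caps of ATPase and non-ATPase subunits and, under interferon, replacement catalytic subunits and an activator suited to antigen processing. Of 40 measured genes, 34 had a change above 0, against 49.9% of all genes; 4 stood 2-fold or more above 0 h and 0 below, against 4.08% and 3.16% of all genes. The median was 0.31, and it kept its sign without centring (0.09), under quantile normalization (0.34) and against 0.5 h (0.14). In 5 of the 27 genes with 2 or more probes every probe was at least 1.5-fold higher, and in 0 lower, against 2.79% and 1.92% of the 3015 genes.

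The subunit classes differed in these values. The interferon-inducible catalytic subunits had changes of 1.42 for Psmb8 (SD over probes 0.49), 1.27 for Psmb10 and 0.63 for Psmb9, the latter 2 on 1 probe each. The Psmb9 probe lies in a run of probe numbers with many high readings at 0.5 h and 2 h and read 3.61 and 3.66 there. Against the 0.5 h array its change was -1.66. In such runs also lie 5 of the 7 Psmb8 probes and both probes of Psme1 and of Psme2, but not those of Psmb10 and Psme3. Without the runs the inducible subunits had a median of 1.41, and Psme3 was the only activator gene left. The 7 probes of Psmb8 had levels between 0.66 and 2.69 at 0 h and between 2.02 and 4.57 at 7 h, with changes from 0.61 to 1.90, all above 0. The activator genes Psme2 and Psme1 had changes of 1.23 and 0.69, while Psme3, of the nuclear activator, had -0.000287 on 1 probe. Psme2 read 0.68 and 2.31 at 0 h and 2.07 and 3.39 at 7 h. In the alpha ring, Psma6 read 0.14 and 0.09 at 0 h and 1.27 and 1.32 at 7 h, Psma4 had a change of 0.91 on 3 probes and Psma2 of 0.68, whereas Psma7 stood lower at -0.43. The 7 standard beta subunits lay between 0.07 and 0.65, with a median of 0.39. The 6 cap ATPases had a median of 0.04 and the 11 non-ATPases of 0.15, and both medians turned negative without centring, at -0.18 and -0.07. The differences between classes were not tested.

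**Figure D5:**
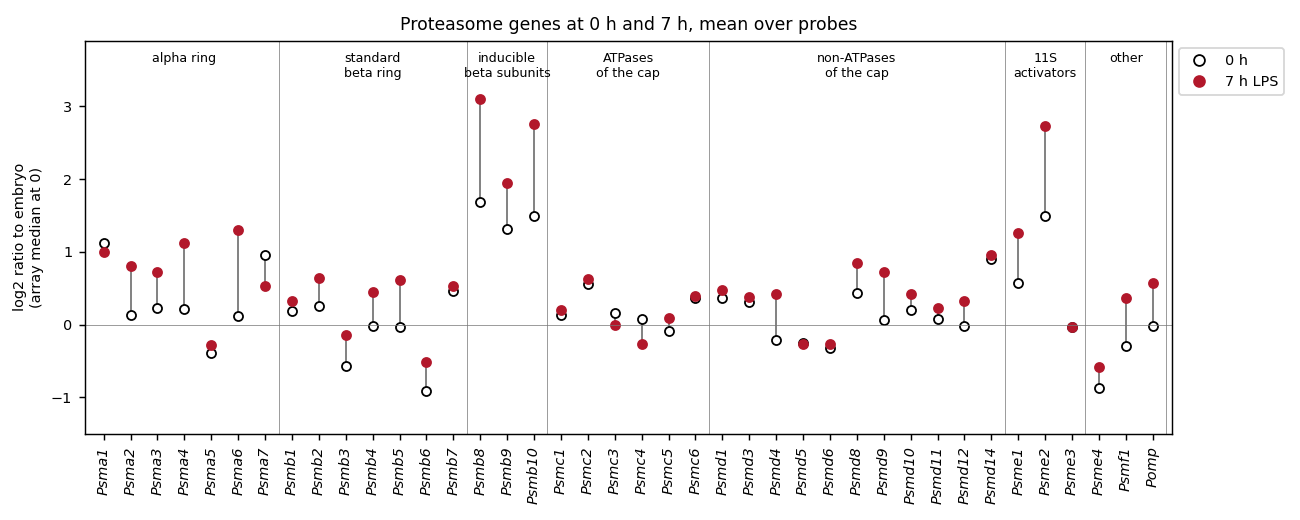
Centred log2 ratio to embryo RNA (y axis) of 40 proteasome genes (x axis) at 0 h (open circles) and 7 h of LPS (red), mean over probes, grouped by role. The 3 inducible beta subunits and the activator gene Psme2 stand between 1.95 and 3.10 at 7 h, and the cap ATPases lie close to their 0 h levels.

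Antigen presentation genes that act after the proteasome were measured in part. Of 11 genes, 3 stood 2-fold or more above 0 h and 0 below, against 4.08% and 3.16% of all genes, with a median of 0.23 (-0.10 under quantile normalization). Tapbp, which loads peptides onto class I molecules, was 3.33-fold higher and Tap2, a subunit of the peptide pump, 2.38-fold, each on 1 probe. The Tapbp probe lies in the runs of high early readings, but not that of Tap2. B2m, the light chain of class I, had a change of 1.04 (SD over probes 0.66), which turned to -0.11 under quantile normalization. Its level at 0 h was already 3.11.

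Lysosomal genes stood on both sides of their 0 h level. Of 36 measured, 2 stood 2-fold or more above 0 h and 3 below, against 4.08% and 3.16% of all genes, with a median of -0.13 (-0.35 without centring and -0.40 under quantile normalization). Ctsc, the protease that activates granule serine proteases, read 2.90 and 2.59 at 0 h and 3.86 and 4.28 at 7 h. Lamp2, a major membrane protein of lysosomes, was higher on 3 probes by 1.06, 0.94 and 0.71, and Npc2, which carries cholesterol out of lysosomes, on 2 probes by 0.62 and 0.95. Npc2 was chosen after its values were seen. Ctsz, a carboxypeptidase, had a mean of 1.15 but probes at 1.91 and 0.38. Ctsa, a protective carboxypeptidase, stood lower on both probes, at -1.31 and -0.69. The sulfatase gene Arsb and the protease gene Ctsk stood lower on 1 probe each, both at -1.14. Of the 13 proton pump genes 0 were 2-fold higher or lower, against 7.24% of all genes. Atp6v1f, of that list, was higher on both probes, by 0.64 and 0.996.

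Adhesion and matrix genes included 6 of 28 that stood 2-fold or more above 0 h and 0 below, against 4.08% and 3.16% of all genes, with a median of 0.18 (-0.04 without centring). Besides Fgl2 and Sdc4 these were the galectin gene Lgals9 (2.15-fold, 2 probes), the protease inhibitor genes Timp1, Timp2 and Serpinb2 (1 probe each). A second galectin gene, Lgals8, which marks damaged vesicles, gave 1.0035 and 0.78. Actin cytoskeleton genes had a median of 0.24 over 62 genes (0.02 without centring). Of the 62, 2 stood 2-fold or more above 0 h and 0 below, against 4.08% and 3.16% of all genes. They were Arpc5 and the platelet and leukocyte signalling gene Plek, whose 2 probes gave 0.47 and 1.66. Capza2, a capping protein of actin filaments, was above 0 on all 8 probes, from 0.36 to 1.39, and was chosen after its values were seen as another gene with many probes. Among 99 vesicle traffic genes 2 stood 2-fold or more above 0 h and 1 below, against 4.08% and 3.16% of all genes. Their median was 0.17 (-0.05 without centring). Snx10, an endosomal sorting nexin, was 2.44-fold higher on probes at 0.97 and 1.60, and Ehd1, of endosomal recycling, had probes at 0.27 and 1.87. The SNARE gene Sec22b stood lower at -1.09 on 1 probe, and the sorting nexin gene Snx9, which is not in that list and was chosen after its values were seen, on both probes at -0.64 and -1.44.

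The metabolic lists had medians near 0, with single genes apart. Hif1a, the oxygen-regulated factor that drives glycolytic genes, was above 0 on all 6 probes, from 0.45 to 2.76, with a mean of 1.53, and all 6 lie in the runs of high early readings. The glycolysis and pentose phosphate list it belongs to had a median of 0.12 over 25 genes (-0.10 without centring). The purine synthesis genes Gart (-1.05) and Paics (-0.99) stood lower on both of their probes, and the list of arginine, polyamine and one-carbon metabolism had a median of -0.17. Nampt, which makes NAD from nicotinamide, had probes at 0.34 and 1.71. Single probes gave the nucleoside transporter gene Slc28a2 a change of 3.53 and the cationic amino acid transporter gene Slc7a2 2.11. The Slc28a2 probe lies in the runs of high early readings, but not that of Slc7a2. Of the 36 transporters measured, these 2 stood 2-fold or more above 0 h and 4 below, against 4.08% and 3.16% of all genes. Lta4h, which makes leukotriene B4, was below 0 on all 5 probes, from -0.29 to -1.26. Of 24 measured eicosanoid, phospholipid and sphingolipid enzyme genes, 3 stood 2-fold or more above 0 h and 0 below, against 4.08% and 3.16% of all genes. The higher 3 were Pla2g7 (1.90), Pla2g4a (1.89) and Sphk2 (1.56), on 1 probe each, and the list median was 0.09 (-0.13 without centring). The Sphk2 probe lies in the runs of high early readings, but not those of Pla2g7 and Pla2g4a.

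Metal and redox genes held some of the clearest agreement and disagreement between probes. The copper transporter gene Slc31a2 was higher on 3 probes by 1.11, 1.501 and 0.76, and the ferritin heavy chain gene Fth1 on 4 by 0.27 to 1.40. The mitochondrial superoxide dismutase gene Sod2 had a mean of 2.19, with 3 probes at 3.72, 2.74 and 2.83 and the other at -0.53, whose level stayed below 0.1 on all 5 arrays. The selenoprotein gene Selenow, chosen after its values were seen, was higher on 3 probes by 1.58, 1.13 and 0.61. Cycs, the electron carrier cytochrome c, was above 0 on all 10 probes, from 0.04 to 1.11. The respiratory chain list had a median of 0.07 over 67 genes (-0.15 without centring). Of these, 60 lay within 1.5-fold of 0 h, against 77.7% of all genes.

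Of the 66 ribosomal protein genes 0 differed by 2-fold or more and 62 lay within 1.5-fold, against 7.24% and 77.7% of all genes. Their median was 0.10 (-0.12 without centring). The 18 aminoacyl-tRNA synthetase genes had a median of -0.20 and the 16 sterol genes of -0.24, the lowest medians of the 36 functional lists (-0.42 and -0.46 without centring). In the sterol list 1 gene was 2-fold lower and 0 were higher, against 3.16% and 4.08% of all genes. The lower gene was Sqle, an oxygenase of cholesterol synthesis (-1.03, 1 probe). Of 21 measured genes in the macrophage transcription factor list, 0 stood 2-fold or more above 0 h and 2 below, against 4.08% and 3.16% of all genes. The lower 2 were Mef2c on both probes (-1.34 and -0.70) and the histone deacetylase gene Hdac5 on 1 (-1.46). The Hdac5 probe read 0.59 at 0 h and 4.07 at 2 h.

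The direction of the ratio was itself inferred from marker genes, so the levels of the markers are given as a description and do not check the macrophage label. Of 13 measured macrophage identity genes, 11 lay above the array median at 0 h and 10 at 7 h, with median levels of 1.75 and 1.52, while of 49 whole-embryo genes 2 and 4 did, with median levels of -1.05 and -1.52. Of the 13 macrophage identity genes, 2 stood 2-fold or more above 0 h and 1 below, against 4.08% and 3.16% of all genes. The higher 2 were Fcgr1 (1.52) and Fcer1g (1.14), on 1 probe each, and the Fcgr1 probe lies in the runs of high early readings. The lower gene was Sirpa, an inhibitory receptor of macrophages. It read 0.31 at 0 h, -3.15 at 7 h and 0.37 at 21 h on 1 probe. Markers of other cells were also measured: the median change was 0.16 over 8 neutrophil genes, 0.42 over 6 B cell genes, 0.10 over 5 T and NK cell genes, -0.11 over 4 dendritic cell genes, -0.39 over 5 mast cell genes, -0.06 over 15 erythroid genes and -0.03 over 24 stromal genes. The B cell receptor gene Cd79b read -2.08 at 0 h and 0.32 at 7 h on 1 probe. The neutrophil gene Stfa3 read 1.79 at 0 h and -3.58 at 7 h on 1 probe, but already -4.33 at 0.5 h. Against the 0.5 h array its change was 0.74. Fcnb, of the same list, went the other way, from -0.46 to 1.20 on 1 probe. The part of other cells in the changes above was not tested.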

How the data were processed

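RNA of mouse macrophages after 0, 0.5, 2, 7 and 21 h of LPS was measured on 5 two-colour spotted arrays, 1 per time, against whole embryo RNA. The authors deposited 1 log ratio per probe, read here as log10; the base, the dye of each channel and the ratio's direction are not in the labels. Base 10 and macrophage over embryo are inferred, the latter as likely from marker genes, while the authors' normalization was not given in the sources used here. The log10 values, times 3.32, gave log2 ratios, which were centred on each array's median over the 18296 of 19828 probes with a value on all 5 arrays. The platform annotation of 2008 gave 1 symbol to 14759 probes, several to 170, and does not list 4899, which are unnamed here. Entrez identifiers matched 14628 to RefSeq's GRCm38.p6 gene table. The 13782 probes with 1 symbol and all values were averaged into 8637 genes.

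With 1 array per time, no test was run; 2-fold and 1.5-fold are rules of size, and precision is limited by the number of arrays. Genes with 2 or more probes, all at least 1.5-fold from 0 h in 1 direction, were ranked by the smallest probe change, without 3 lists (cytokines and chemokines, interferon response, cell cycle), and 20 per direction were named. In the other 45 lists (36 functional, 9 marker lists) the 4 members of largest change at most were named, first those whose probes share a sign, then single probes at least 2-fold from 0 h. Members of lists counted by 2-fold or by agreeing probes, and others said to be so chosen, were named after their values were seen. The members and lists were chosen with earlier results of these data known. Alternatives were no centring, quantile normalization, centring within 207 runs of 96 probe numbers, reading the values as log2, the median over probes, probes with values at 0 h and 7 h alone, the 0.5 h array as baseline, leaving out 94 runs in which at least 10% of probes stood 2-fold above 0 h at 0.5 h or 2 h, and every probe at least 2-fold. Scripts were checked on simulated data (Python 3.11.15, numpy 2.4.6, pandas 2.3.3).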

Additional observations from a re-analysis of the deposited data

How the results depend on the processing

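No paired analysis was possible because each time has 1 array and the labels give no replicate numbers. The count of 352 higher genes was 220 without centring and 7 with the values read as log2. The count of 273 lower genes was 510 without centring, 516 under quantile normalization, 5 read as log2, 709 against the 0.5 h array and 172 without the 94 runs of high early readings. The 84 genes with all probes higher became 38 without centring, 10 read as log2, 48 against 0.5 h, 45 without the runs (fewer genes have 2 probes there) and 27 with every probe at least 2-fold. The 58 lower ones became 141, 107 under quantile normalization, 0 read as log2, 131 against 0.5 h, 19 without the runs and 7 with every probe at least 2-fold. Of the 84 and 58 genes, 38 and 58 were also found without centring, 74 and 58 under quantile normalization, 66 and 42 with centring by runs, and 36 and 32 against 0.5 h. Among the named genes 2-fold from 0 h or with agreeing probes, the sign changed against the 0.5 h array for Ifit1bl2 (-1.44), Scg3 (0.10), Pxdn (0.34), Fcgr1 (-5.31), Stfa3 (0.74) and Dcn (0.11), and under quantile normalization for B2m (-0.11) and Fcgr1 (-0.25); the cause was not tested. Of the other genes in the text, Psmb9 turned to -1.66 against the 0.5 h array, and Rela from 0.15 to -0.07 without centring and to -0.08 with centring by runs. Without centring, with centring by runs, the median over probes or probes of both arrays alone, none of the genes 2-fold from 0 h or with agreeing probes changed sign. All changes rest on 1 unstimulated array, and no depth or spot intensity was used here.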

Other observations

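Probes without a single gene symbol were also measured. Of 4514 such probes with values on all 5 arrays, 295 (6.54%) stood 2-fold or more above 0 h at 7 h and 147 (3.26%) below. Among the 13782 probes with 1 symbol these shares were 5.01% and 3.86%. The genes behind the unnamed probes are not identified here, and the difference was not tested.

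In the 94 runs of probe numbers with many high readings at 0.5 h and 2 h, 5.81% of 8096 probes stood 2-fold or more above 0 h at 7 h and 4.48% below. Among the other 10200 probes these shares were 5.05% and 3.10%. Single probes named above that also lie in these runs include those of Aoah, Timp1, Serpinb2, Sqle, Stfa3 and Fcnb.

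Probes of a gene pointed in opposite directions in 5 of the 75 genes with 2 or more probes and a mean at least 2-fold higher, and in 1 of the 43 with a mean at least 2-fold lower. The probes of Mxi1, another partner of Max, gave -6.54 and -0.43, and those of the respiratory chain gene Ndufv1 0.05 and 2.43, so that their means describe neither probe.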
